A study of Homo sapiens with 21 samples.

Results

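The 10 cell-cycle regulators described here were followed through TGFβ-induced epithelial-to-mesenchymal transition (EMT): the cyclin-dependent kinase (CDK) inhibitors *CDKN1A*, *CDKN1B*, *CDKN1C*, *CDKN2A*, *CDKN2B* and *CDKN2C*, the D cyclins *CCND1*, *CCND2* and *CCND3*, and *MYC*. They were taken by symbol, 10 of the 23201 symbols measured, and all 10 passed the filter on low values. RNA-seq was done on HMLE cells, an established line of human mammary epithelial cells, with 3 libraries from untreated cells (d0) and 3 from each of days 1, 4, 7, 10, 15 and 20 of TGFβ treatment (d1, d4, d7, d10, d15 and d20), 21 libraries in all. Every culture was started at an equal seeding density, and the TGFβ dose is not given in the sources used here. HMLE cells were immortalized with telomerase and the SV40 early region, whose large T antigen binds the RB and p53 proteins, and untreated and treated cells share this background. Untreated libraries came from d0 alone, so TGFβ and time in culture cannot be told apart. In bulk RNA, fewer cells expressing a gene and less RNA per cell cannot be told apart either.

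In G1, D cyclins bind CDK4 and CDK6 and start the phosphorylation of RB, which then releases E2F factors that switch on the genes of DNA replication. The INK4 proteins, encoded by the *CDKN2* genes, bind CDK4 and CDK6 and keep D cyclins off them, whereas the CIP/KIP proteins, encoded by the *CDKN1* genes, bind cyclin-CDK complexes, CDK2 in particular. *MYC* encodes a transcription factor that drives ribosome production and cell growth. TGFβ is known in epithelial cells for arresting growth in G1, with SMAD proteins acting on *CDKN2B*, *CDKN1A* and *MYC*, and p53 is the best known activator of *CDKN1A*.

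Values are normalized read counts, that is, reads per gene divided by one size factor per library, with no correction for gene length, so levels were compared between timepoints of a gene and never between genes. Recovered reads totalled 18847917 to 22667754 per library. The third d7 library stood apart: it differed from the other d7 libraries by a root mean square of 0.46 and 0.47 on the log2 scale over all 13343 genes tested, against 0.21 to 0.24 in the 19 other pairs of libraries from one timepoint. Over all genes tested it was as far from the mean of the other d7 libraries (0.45) as from the d4 (0.43) and d20 means (0.43). Over the 10 genes described here it lay 0.21 from the d20 mean and 1.08 from the mean of the other d7 libraries. All 21 libraries share one estimate of the spread, so this library also widens the errors of other days, and results are given with and without it where that matters. Columns carry no replicate numbers, and libraries are named by their position among the columns of a timepoint.

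CDK inhibitors did not move as a block. *CDKN1A* rose on 4 of the 6 treated days and fell on none, *CDKN2C* fell on 5 and rose on none, and *CDKN1B*, *CDKN1C* and *CDKN2B* rose on some days and fell on others. *CCND1* and *CCND2* rose on all 6 days, but the call for *CCND2* on d20 was lost under other scalings and sets of libraries given below. At an adjusted p under 0.05 (limma), 3 of the 10 genes were higher and 3 lower than untreated cells on d1, where 31.3% and 28.5% of all genes tested were called. At d4, 6 were higher and 1 lower (all genes 36.9% and 35.3%), and on d7 6 were higher and 0 lower (34.6% and 32.6%). The count of 0 lower on d7 by limma was also 0 at an unadjusted p under 0.05 and by edgeR and DESeq2, and 1, *CCND3*, without the third d7 library. At d10, 4 were higher and 4 lower (37.0% and 30.7%). At d15, 8 were higher and 1 lower (39.2% and 37.3%), and on d20 5 were higher and 2 lower (32.5% and 30.2%). Counts higher lay close to the background on d1 and d10 and further above it on d4, d7, d15 and d20, while counts lower lay above it on d10 alone and close to it on d1. Without the third d7 library the counts higher and lower were 5 and 4 on d1, 7 and 2 on d4, 7 and 1 on d7, 6 and 4 on d10, 8 and 1 on d15, and 5 and 3 on d20. The shares of all genes called higher and lower in that fit were 34.4% and 31.8% on d1, 39.0% and 37.6% on d4, 36.8% and 34.4% on d7, 39.6% and 33.1% on d10, 41.0% and 38.9% on d15, and 35.4% and 33.3% on d20.

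With at least a 2-fold change required as well, 3 of the 10 genes were called on d1 (*CCND1* higher, *CDKN1C* and *CDKN2C* lower), against 6.47% higher and 3.87% lower of all genes. At d4 the 4 called were *CDKN1A*, *CCND1* and *CCND2*, which were higher, and *CDKN2C*, which was lower (all genes 9.68% and 5.03%). *CDKN1A*, *CDKN1C* and *CCND1* were higher on d7 (8.79% and 2.93%). At d10 *CCND1* was higher and *CDKN1C* lower (6.94% and 7.34%). At d15 *CDKN1A*, *CDKN1C* and *CDKN2B* were higher and *CDKN2C* lower (11.7% and 8.66%), and on d20 *CDKN1A* and *CCND1* were higher (7.51% and 4.72%). Rescaling libraries to equal totals lowers the median change of all genes on the log2 scale by 0.16 to 0.23, so modest changes are read relative to that shift. Of all genes called, 51.1% to 54.6% were higher on the 6 days, against 26.7% to 39.1% after that rescaling and 41.9% to 47.7% after quantile normalization. The counts higher and lower among the 10 genes were then 2 and 4 on d1, 3 and 3 on d4, 4 and 3 on d7, 3 and 4 on d10, 6 and 2 on d15, and 3 and 3 on d20 after rescaling. Of all 13343 genes tested, 2436 were then higher and 6692 lower on d1, and 3440 and 6602 on d4. The pairs were 3035 and 6552 on d7, 2864 and 6740 on d10, 4044 and 6296 on d15, and 2661 and 6778 on d20. Under that rescaling, 55 of the 60 fold changes of the 10 genes kept their sign, and 59 did when each was taken relative to the median of all genes.

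**Figure D1:**
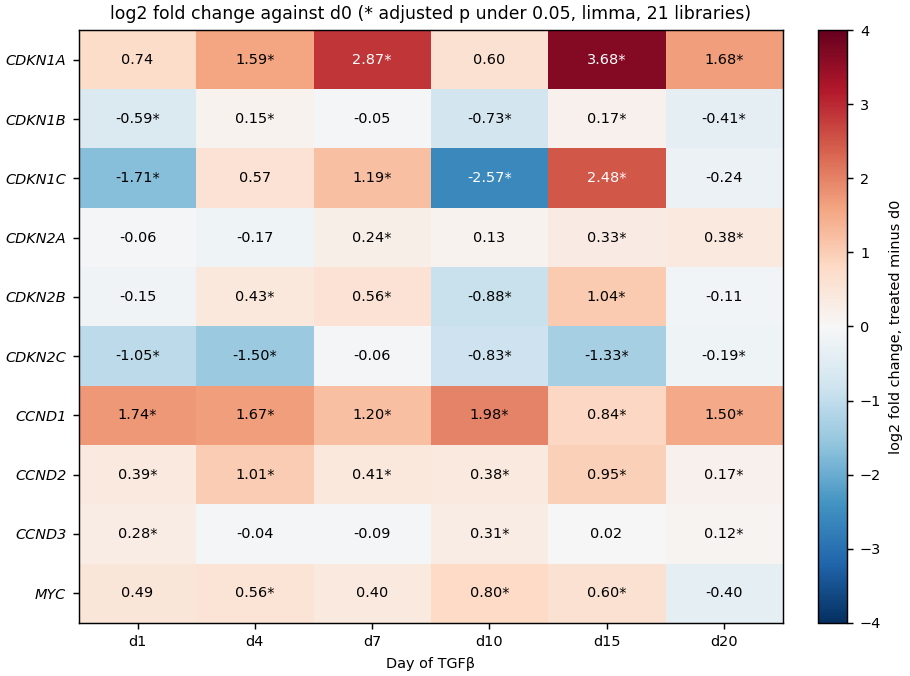
Heatmap of the log2 fold change of each of the 10 genes (rows) on each treated day (columns) against untreated cells, from 3 libraries per timepoint, with blue for lower, red for higher and an asterisk for an adjusted p under 0.05 in limma. *CDKN1A* runs from 0.60 on d10 to 3.68 on d15, *CDKN1C* from -2.57 on d10 to 2.48 on d15, and *CCND1* carries an asterisk on all 6 days.

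*CDKN1A*, which encodes the p21 inhibitor of cyclin-CDK complexes, showed the largest rise of the 10 genes. Its 3 untreated libraries read 1937, 1831 and 1668, and the d1 libraries read 3103, 2917 and 3025. At d4 the values were 5413, 5725 and 5163, and on d7 they were 22956, 20636 and 4839.8. The third d7 library lay just below the d4 libraries, while the other two lay near the d15 libraries. The d10 libraries fell back to 2642, 2903 and 2682, the d15 libraries read 23139.9, 22797 and 23650.4, and the d20 libraries read 6418, 5529 and 5456. No treated library overlapped the untreated ones on any day. The d15 mean of 23196 ± 429 (SD, n = 3) was 12.8 times the d0 mean of 1812 ± 136 (log2 fold change 3.68 ± 0.32 standard error, SE, limma adjusted p = 1.12e-09). *CDKN1A* also rose on d4 (1.59 ± 0.32 SE, limma adjusted p = 0.000172), d7 (2.87 ± 0.32 SE, limma adjusted p = 1.09e-07) and d20 (1.68 ± 0.32 SE, limma adjusted p = 0.000124). The log2 fold change was 0.74 (limma adjusted p = 0.0555) on d1 and 0.60 (limma adjusted p = 0.108) on d10, neither past the threshold.

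Without the third d7 library, the d7 fold change of *CDKN1A* was 3.59 ± 0.053 SE, limma adjusted p = 5.2e-39, and d1 and d10 passed the threshold with unchanged fold changes (limma adjusted p = 5.3e-17 and 2.12e-14). In order of their means, the timepoints ran d0, d10, d1, d4, d20, d7 and d15. Among neighbours in this order, d0 and d10, d10 and d1, and d4 and d20 did not pass the threshold with all libraries. The steps from d1 to d4, d20 to d7 and d7 to d15 did. Libraries of d0 and d10, and of d10 and d1, nonetheless did not overlap. The step from d1 to d4 missed the threshold in 5 of the 6 fits that each left out 1 library of these days (limma adjusted p = 0.0508 to 0.0677). Leaving out the third d7 library turned this around for d7 and d15, which then differed by 0.092 (limma adjusted p = 0.14), and separated d0, d10 and d1 from each other. From d10 to d15 *CDKN1A* rose by 3.08 on the log2 scale, and from d15 to d20 it fell by 2.003 (limma adjusted p = 1.78e-08 and 1.06e-05).

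**Figure D2:**
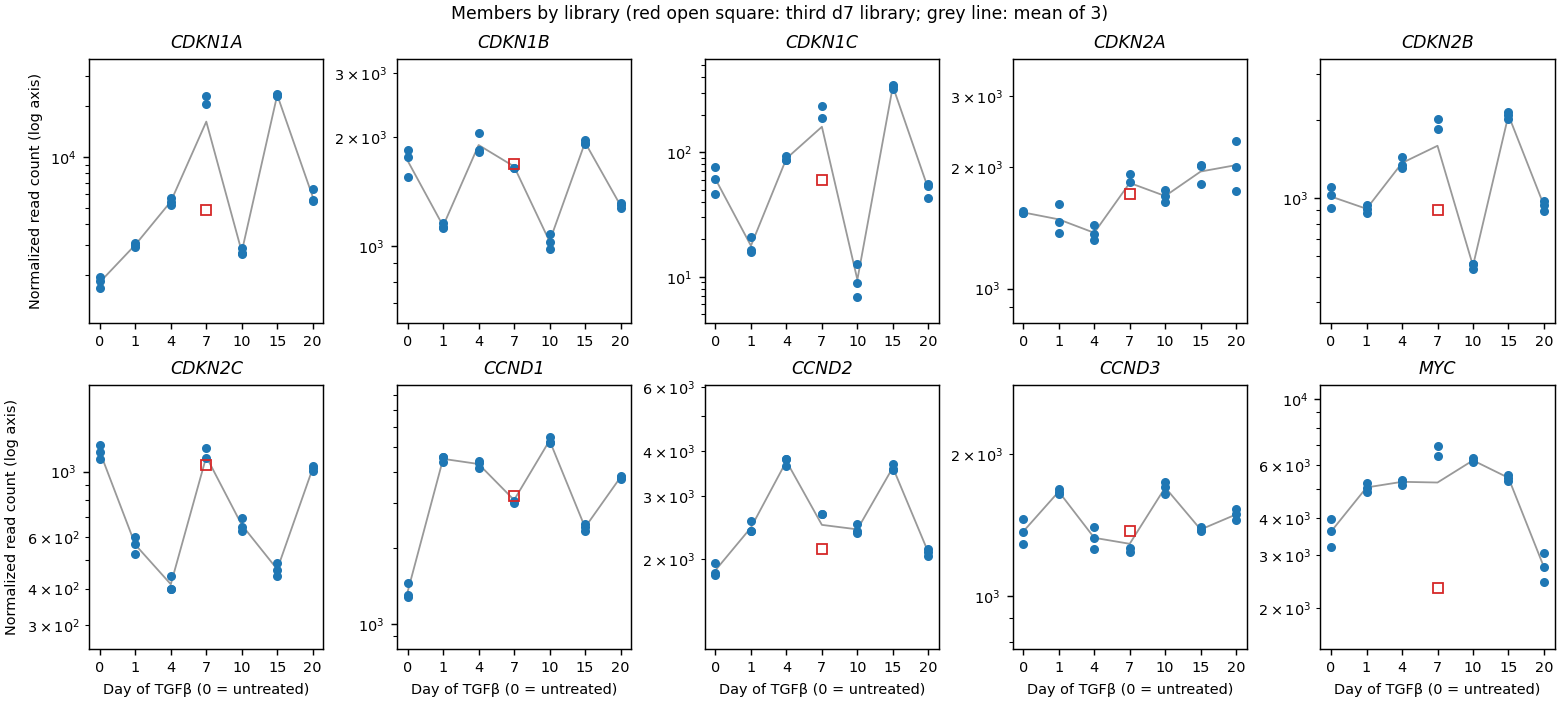
Normalized read count of each of the 10 genes (log axis, scaled per panel) against day of TGFβ, with 0 for untreated cells, a point for each of 21 libraries, a red open square for the third d7 library and a grey line through the means of 3. *CDKN1A*, *CDKN1C* and *CDKN2B* peak in the first 2 d7 libraries and on d15 and drop on d10, *CDKN2C* is lowest on d4 and d15, and *CCND1* lies above untreated cells throughout.

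The windows upstream of the annotated starts of *CDKN1A* and *CDKN2B*, genes that rose together on d4, d7 and d15, are shown with those of both *CDKN2A* starts, since the measured symbol covers 2 transcripts with separate starts. RefSeq promoter windows (GRCh38.p14) were at hand for 6 of the 10 genes and not for *CDKN1C*, *CCND1*, *CCND2* and *MYC*. Each run holds the 250 bases before the start, 5′ to 3′ on the gene's strand, and capitals mark the GC box GGGCGG, the sequence bound by Sp1, or its reverse complement CCGCCC. The *CDKN1A* window is chr6:36678464-36678713 on the plus strand, and the minus-strand windows are chr9:22009306-22009555 for *CDKN2B*, chr9:21995325-21995574 for the start of *CDKN2A* that gives ARF and chr9:21974858-21975107 for the start that gives p16.
CDKN1A: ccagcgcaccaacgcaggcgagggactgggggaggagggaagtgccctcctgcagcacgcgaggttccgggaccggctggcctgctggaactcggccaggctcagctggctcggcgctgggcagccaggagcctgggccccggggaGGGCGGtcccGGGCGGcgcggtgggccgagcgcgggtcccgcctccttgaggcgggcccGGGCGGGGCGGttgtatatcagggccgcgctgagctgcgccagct
CDKN2B: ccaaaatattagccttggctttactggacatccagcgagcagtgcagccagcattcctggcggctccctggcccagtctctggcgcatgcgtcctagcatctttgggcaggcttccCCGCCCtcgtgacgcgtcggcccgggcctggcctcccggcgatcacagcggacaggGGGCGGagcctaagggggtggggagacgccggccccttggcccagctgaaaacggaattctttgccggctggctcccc
CDKN2A, ARF start: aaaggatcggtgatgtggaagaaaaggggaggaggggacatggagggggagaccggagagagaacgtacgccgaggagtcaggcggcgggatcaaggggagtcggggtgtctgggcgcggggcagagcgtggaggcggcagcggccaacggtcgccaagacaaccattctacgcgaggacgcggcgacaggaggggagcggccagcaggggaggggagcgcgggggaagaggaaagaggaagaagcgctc
CDKN2A, p16 start: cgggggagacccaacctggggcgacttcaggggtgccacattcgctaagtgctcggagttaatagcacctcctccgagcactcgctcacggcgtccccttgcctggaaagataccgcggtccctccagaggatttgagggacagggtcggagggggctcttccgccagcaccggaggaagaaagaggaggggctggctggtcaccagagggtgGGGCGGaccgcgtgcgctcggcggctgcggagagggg
The *CDKN1A* window held 4 GC boxes on the plus strand, of which a pair shares 1 base, and the *CDKN2B* window 1 on each strand, the p16 start of *CDKN2A* held 1 and the ARF start 0, while 42.6% of the 35116 promoter windows of this length held at least 1. The SMAD box CAGAC or its reverse complement GTCTG was in 38.0% of all windows and in none of *CDKN1A*, *CDKN2B* and the p16 start, and once in the ARF start. The *CDKN1B* window, not printed, held 1 GC box. *CDKN2C*, lower on 5 days, had 3 starts, with 0, 5 and 1 GC boxes at starts 1, 2 and 3. *CCND3* also had 3, with 2 GGGCGG and 3 CCGCCC at start 1, 1 of each at start 2 and 0 at start 3. The SMAD box was at starts 1 and 3 of *CDKN2C* and in no *CDKN1B* or *CCND3* window. GC boxes were thus not limited to genes that rose. A match describes these letters only.

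*CDKN1B* encodes p27, a CIP/KIP inhibitor whose level is set largely through protein turnover. Its mean was 1721 ± 153 (SD, n = 3) at d0, 1138 ± 17.9 on d1 and 1901 ± 129 on d4. It was 1659 ± 23.9 on d7, 1032 ± 48.2 on d10, 1932 ± 28.3 on d15 and 1296 ± 21.9 on d20. *CDKN1B* fell on d1 (-0.59, limma adjusted p = 5.26e-09), d10 (-0.73, limma adjusted p = 1.12e-10) and d20 (-0.41, limma adjusted p = 1.27e-06), and on these 3 days no treated library reached the lowest untreated one. Its rises on d4 (0.15, limma adjusted p = 0.0206) and d15 (0.17, limma adjusted p = 0.00703) were small, and both calls were lost when libraries were rescaled to equal totals, at -0.052 (limma adjusted p = 0.408) and 0.012 (limma adjusted p = 0.853). The d4 libraries overlapped the untreated ones. Without the third untreated library the d15 value was 0.098 (limma adjusted p = 0.0824) and the d4 value 0.072 (limma adjusted p = 0.205). The order of means was d10, d1, d20, d7, d0, d4 and d15, in which d7 and d0, and d4 and d15, did not differ beyond their spread. Across its range the highest mean was 1.87 times the lowest.

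*CDKN1C*, which encodes p57, an inhibitor expressed from an imprinted locus, had the fewest reads of the 10 genes and the widest range, its highest mean being 35.6 times its lowest. The untreated libraries read 60.5, 75.5 and 46.5, the d1 libraries 20.9, 16.4 and 15.9 and the d4 libraries 86.2, 93.5 and 87.2. The d7 libraries read 233, 187 and 59.6, the third within the untreated range. At d10 the values were 8.96, 12.6 and 6.84, from 7 to 13 recovered reads, so counting error is large there. They were 349, 342 and 321 on d15 and 55.1, 53.7 and 43.1 on d20. All d15 libraries were above, and all d1 and d10 libraries below, every untreated library, whereas d20 overlapped them. The d4 libraries were also above them. *CDKN1C* fell on d1 to 0.292 of its untreated mean (-1.71 ± 0.32 SE, limma adjusted p = 0.000112) and on d10 to 0.156 (-2.57 ± 0.32 SE, limma adjusted p = 4.31e-07). It rose 5.54-fold on d15 (2.48 ± 0.32 SE, limma adjusted p = 4.73e-07) and, on the mean of 3 unequal libraries, on d7 (1.19 ± 0.32 SE, limma adjusted p = 0.00268). Without the third d7 library the d7 value was 1.79 (limma adjusted p = 2.31e-10), and d4, at 0.57 (limma adjusted p = 0.12) with all libraries, passed the threshold (limma adjusted p = 0.00437). With only the 2 groups compared in the fit, d7 missed the threshold (limma adjusted p = 0.0635). The log2 scale with 1 added understates the changes of this low gene. By its means the order was d10, d1, d20, d0, d4, d7 and d15, with d20 and d0, d0 and d4, and d4 and d7 not separated.

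*CDKN2B* encodes p15, an INK4 inhibitor of CDK4 and CDK6. Its libraries read 1103, 1025 and 918 at d0, 940.3, 881 and 913 on d1 and 1445, 1311 and 1342 on d4. At d7 they read 2019, 1849.5 and 900.0, where the third library lay under every untreated library. They read 533, 558 and 562 on d10, 2135, 2092 and 2021 on d15 and 977, 898 and 941 on d20. The d15 libraries were all above the untreated ones, the d10 libraries were the lowest of the series, and d20 overlapped d0. *CDKN2B* rose on d15 (1.04 ± 0.17 SE, limma adjusted p = 1.2e-05), fell on d10 (-0.88 ± 0.17 SE, limma adjusted p = 0.000119), and rose on d4 (0.43, limma adjusted p = 0.0295) and d7 (0.56, limma adjusted p = 0.00637). Rescaling libraries to equal totals ended the calls on d4, 0.23 (limma adjusted p = 0.217), and d7, 0.37 (limma adjusted p = 0.0537), and quantile normalization that on d4 (0.36, limma adjusted p = 0.0746). Without the third d7 library the d7 value was 0.93 (limma adjusted p = 5.36e-18), and the value on d1 was called lower (-0.15, limma adjusted p = 0.00816). Its means ran d10, d1, d20, d0, d4, d7 and d15. Neighbours d1 and d20, d20 and d0, and d4 and d7 did not differ beyond their spread. *CDKN2B-AS1*, an antisense RNA that crosses this locus, was 75.9 at d0 and 103 on d15 (log2 fold change 0.44, limma adjusted p = 0.00742). It was not called there after rescaling to equal totals, and since strand-specific counting is not stated, reads of the pair cannot be told apart.

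*CDKN2A*, whose symbol covers the INK4 protein p16 and the unrelated protein ARF, an antagonist of MDM2, moved least of the inhibitors. Its mean was 1545 ± 10.4 (SD, n = 3) at d0, 1485 ± 126 on d1, 1375 ± 62 on d4 and 1828 ± 103 on d7. It was 1696 ± 57.5 on d10, 1951 ± 116 on d15 and 2024 ± 284 on d20, where single libraries read 2316, 2005 and 1749.9. The rises on d7 (0.24, limma adjusted p = 0.00793), d15 (0.33, limma adjusted p = 0.000424) and d20 (0.38, limma adjusted p = 0.000171) left no overlap with the untreated libraries. Rescaled to equal totals, the values were 0.05 (limma adjusted p = 0.567), 0.18 (limma adjusted p = 0.0419) and 0.18 (limma adjusted p = 0.0408), so that the call on d7 was lost. All d4 libraries lay below every untreated one, at -0.17 (limma adjusted p = 0.0508), just short of the threshold. That fall was called after rescaling (-0.37, limma adjusted p = 0.0002), where it was -0.18 relative to the median of all genes. It was also called after quantile normalization (-0.25, limma adjusted p = 0.00664) and without the third d7 library (limma adjusted p = 0.00958). No 2 neighbours in the order d4, d1, d0, d10, d7, d15 and d20 passed the threshold. The d0 and d10 libraries nonetheless did not overlap. The highest mean was 1.47 times the lowest, and the table does not separate the 2 transcripts. *MTAP*, the neighbouring gene of purine salvage, fell from 1433 ± 45.5 at d0 to 969 ± 102 on d7 (log2 fold change -0.57, limma adjusted p = 3.07e-09) and also on d15 (-0.44, limma adjusted p = 6.92e-08). It rose on d1 (0.25, limma adjusted p = 0.000247) and d10 (0.34, limma adjusted p = 4.21e-06).

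*CDKN2C*, which encodes the INK4 protein p18, went the other way from *CDKN1A* and *CDKN2B* on d4 and d15. Untreated libraries read 1166, 1232 and 1106, d1 libraries 600.4, 525 and 566 and d4 libraries 399.6, 399 and 442. At d7 the values were back at 1207, 1113 and 1051, overlapping the untreated ones. The d10 libraries read 698, 629.7 and 648, the d15 libraries 442, 463 and 490.0 and the d20 libraries 1042, 1030.3 and 1005. Every library of d1, d4, d10, d15 and d20 was below every untreated one. *CDKN2C* fell on d1 (-1.05 ± 0.064 SE, limma adjusted p = 6.44e-12), d4 (-1.496 ± 0.064 SE, limma adjusted p = 9.42e-15), d10 (-0.83 ± 0.064 SE, limma adjusted p = 2.59e-10) and d15 (-1.33 ± 0.064 SE, limma adjusted p = 4.83e-14), and by less on d20 (-0.19, limma adjusted p = 0.0156). The d20 call was lost without the second untreated library (limma adjusted p = 0.0832) or the third d20 library (limma adjusted p = 0.0518). At d7 the value was -0.056 (limma adjusted p = 0.449), and rescaling to equal totals made it -0.25 (limma adjusted p = 0.0017). The means ran d4, d15, d1, d10, d20, d7 and d0, and each step up to d20 passed the threshold. The steps from d20 to d7 and from d7 to d0 did not, although the d20 and d7 libraries did not overlap. From d4 to d7 *CDKN2C* rose by 1.44 on the log2 scale (limma adjusted p = 6.06e-13).

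*CCND1*, which encodes cyclin D1, rose on every treated day and no treated library overlapped an untreated one. Its libraries read 1284, 1304 and 1451 at d0, 4568, 4362 and 4555 on d1 and 4154, 4320.5 and 4392 on d4. They read 3018, 3059 and 3204 on d7, the third library included, and 5487, 5191 and 5246 on d10. Values were 2486, 2421 and 2332 on d15 and 3824, 3852 and 3739.6 on d20. The rise was thus in place within 1 day, was largest on d10 and smallest on d15. *CCND1* was 3.34 times its untreated mean on d1 (log2 fold change 1.74 ± 0.043 SE, limma adjusted p = 1.15e-18), 3.94 times on d10 (1.98 ± 0.043 SE, limma adjusted p = 8.8e-20) and 1.79 times on d15 (0.84 ± 0.043 SE, limma adjusted p = 1.29e-13). It lay between these on d4 (1.67, limma adjusted p = 1.51e-18), d7 (1.20, limma adjusted p = 5.92e-16) and d20 (1.5, limma adjusted p = 1.03e-17), and it rose on all 6 days under every scaling tried. The order was d0, d15, d7, d20, d4, d1 and d10, and of the neighbours only d4 and d1 did not differ beyond their spread.

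*CCND2* and *CCND3*, which encode cyclins D2 and D3, moved less. *CCND2* averaged 1864 ± 77.5 (SD, n = 3) at d0, 2449 ± 91.7 on d1, 3742 ± 102 on d4 and 2491 ± 303 on d7. It averaged 2421 ± 69.7 on d10, 3595 ± 80.8 on d15 and 2089.8 ± 48.7 on d20. It rose most on d4 (1.01 ± 0.06 SE, limma adjusted p = 2.72e-12) and d15 (0.95 ± 0.06 SE, limma adjusted p = 4.66e-12), the days on which *CDKN2C* was lowest. At d1, d7 and d10 the log2 fold changes were 0.39, 0.41 and 0.38, all past the threshold, and these 3 days were not separated from each other in the order of means with all libraries. Without the third d7 library, *CCND2* fell from d7 to d10 (-0.14, limma adjusted p = 0.00153). The d20 value of 0.17 (limma adjusted p = 0.0211) turned to -0.035 (limma adjusted p = 0.609) with libraries rescaled to equal totals, and was not called by edgeR (0.14, adjusted p = 0.0538). *CCND3* averaged 1372 ± 83.4 at d0, 1666 ± 20.5 on d1, 1699 ± 52.5 on d10 and 1491 ± 40.7 on d20. The other *CCND3* means were 1330.2 ± 70.5 on d4, 1292 ± 70.2 on d7 and 1385 ± 12.7 on d15. *CCND3* was called higher on d1 (0.28, limma adjusted p = 3.83e-05), d10 (0.31, limma adjusted p = 8.31e-06) and d20 (0.12, limma adjusted p = 0.0343), but rescaled to equal totals none of the 3 passed, at 0.088 (limma adjusted p = 0.105), 0.083 (limma adjusted p = 0.123) and -0.079 (limma adjusted p = 0.146). The same rescaling called *CCND3* lower on d4 (-0.24, limma adjusted p = 0.000114), d7 (-0.28, limma adjusted p = 2.55e-05) and d15 (-0.14, limma adjusted p = 0.00964). Relative to the median of all genes in that fit, these values were only -0.051, -0.091 and -3.98e-05. Those of d1, d10 and d20 were then 0.28, 0.28 and 0.12. Quantile normalization called it lower on d4 (-0.12, limma adjusted p = 0.0256) and d7 (-0.14, limma adjusted p = 0.0128), and higher on d1 and d10. Its highest mean was 1.32 times its lowest, the narrowest range of the 10 genes.

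*MYC* was called higher on d4, d10 and d15 and lower on no day with all libraries in the fit and the deposited scaling. The untreated libraries read 3966, 3618 and 3204, the d1 libraries 5038, 4883 and 5227 and the d4 libraries 5166, 5309.8 and 5346. At d7 they read 6945, 6459 and 2333, the first pair the highest of the series and the third the lowest. The d10 libraries read 6145, 6199 and 6319, the d15 libraries 5571, 5307 and 5439 and the d20 libraries 2727, 3045 and 2430.4. All libraries of d1, d4, d10 and d15 were above, and all of d20 below, every untreated library. The log2 fold changes were 0.56 ± 0.23 SE, limma adjusted p = 0.0369 on d4, 0.80 ± 0.23 SE, limma adjusted p = 0.00476 on d10 and 0.60 ± 0.23 SE, limma adjusted p = 0.0236 on d15. They were 0.49 (limma adjusted p = 0.0725) on d1, 0.40 (limma adjusted p = 0.139) on d7 and -0.40 (limma adjusted p = 0.145) on d20. The d4 call was lost when any 1 of 5 libraries was left out, and the d15 call without the third untreated or the first d15 library. Rescaling to equal totals left d10 past the threshold, 0.57 (limma adjusted p = 0.0328), and ended d4 and d15, 0.36 (limma adjusted p = 0.163) and 0.44 (limma adjusted p = 0.0864). It also called *MYC* lower on d20, -0.60 (limma adjusted p = 0.0265).

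Without the third d7 library, *MYC* passed the threshold on all 6 days. It was then higher on d1 (0.49, limma adjusted p = 4.77e-11), d4 (0.56, limma adjusted p = 1.12e-12), d7 (0.90, limma adjusted p = 2.38e-17), d10 (0.80, limma adjusted p = 3.14e-17) and d15 (0.60, limma adjusted p = 9.71e-14), and lower on d20 (-0.40, limma adjusted p = 9.44e-09). The step from d15 to d20 was called in both fits, at -0.998 (limma adjusted p = 0.000614) with all libraries. In the order of means, d20, d0, d1, d7, d4, d15 and d10, no neighbouring pair passed the threshold with all libraries. Libraries of d20 and d0, d0 and d1, and d15 and d10 nonetheless did not overlap. The d7 mean of 5246 ± 2534 (SD, n = 3) joins unequal libraries, and on the log2 scale d7 came 0.099 below d1.

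The third d7 library was set apart in 4 of the 10 genes. The mean of the other d7 libraries was 4.5 times the third for *CDKN1A*, 3.52 times for *CDKN1C*, 2.87 times for *MYC* and 2.15 times for *CDKN2B*. For *CCND2* the ratio was 1.25, and for the other 5 genes it lay between 0.913 and 1.1. In the third library *CDKN1A* was 2.67 times its untreated mean, while *CDKN1C*, *CDKN2B* and *MYC* were at 0.979, 0.886 and 0.649 of theirs. In the other d7 libraries these 4 genes stood at 12, 3.45, 1.9 and 1.86 times the untreated means.

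**Figure D3:**
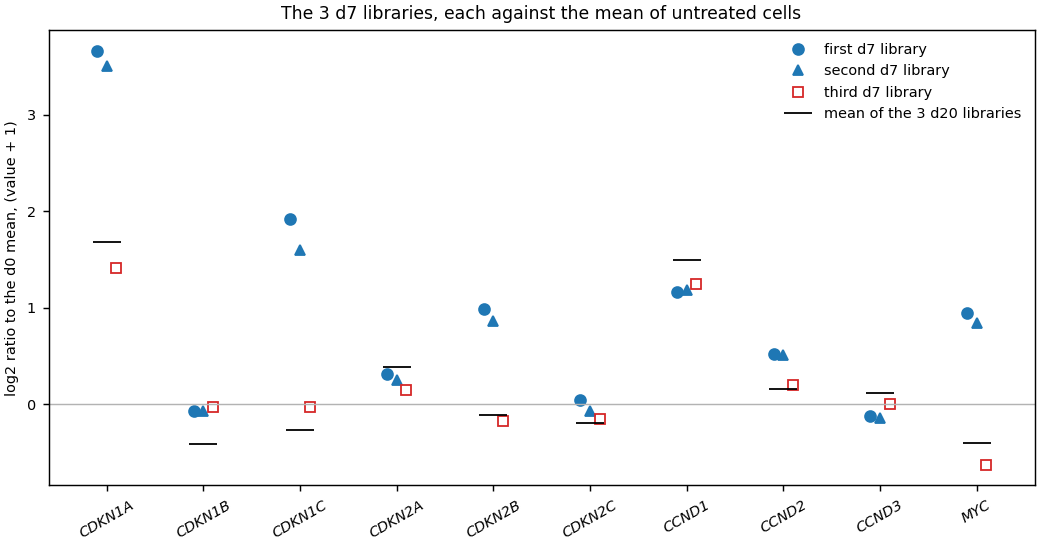
log2 ratio of each d7 library to the untreated mean for the 10 genes, computed on value + 1, with blue symbols for the first 2 d7 libraries, a red open square for the third and a black bar for the mean of the 3 d20 libraries. For *CDKN1A*, *CDKN1C*, *CDKN2B* and *MYC* the square lies well below the blue symbols and near the d20 bar.

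Between successive days, 9 of the 10 genes were called from d10 to d15, a step that also had the highest share of all genes called. Of the 9, 6 rose (*CDKN1A*, *CDKN1B*, *CDKN1C*, *CDKN2A*, *CDKN2B* and *CCND2*) and 3 fell (*CDKN2C*, *CCND1* and *CCND3*), where 39.3% and 40.5% of all genes tested were called. *CDKN1C* rose by 5.05 ± 0.32 SE, limma adjusted p = 5.44e-12 and *CDKN2B* by 1.92 ± 0.17 SE, limma adjusted p = 1.35e-09 on the log2 scale, and *CCND1* changed by -1.14 ± 0.043 SE, limma adjusted p = 1.33e-15. From d15 to d20, 6 genes fell and 2 rose (all genes 36.3% and 37.7%), the 2 being *CDKN2C* and *CCND1*. From d7 to d10, 5 inhibitors fell (*CDKN1A*, *CDKN1B*, *CDKN1C*, *CDKN2B* and *CDKN2C*) and *CCND1* and *CCND3* rose (all genes 35.2% lower and 36.2% higher). From d4 to d7, 3 rose and 3 fell (25.5% and 25.5%). Without the third d7 library 6 rose, with *CDKN1C*, *CDKN2B* and *MYC* added. The share of all genes called from d4 to d7 in that fit is not given here, and the 25.5% does not apply to it. From d1 to d4, 5 rose and 2 fell (32.9% and 32.0%). Across the 21 libraries, which share timepoints in threes, *CDKN1C* and *CDKN2B* had the highest Pearson r of the 45 pairs of these genes (0.95), *CDKN1B* and *CCND3* the lowest (-0.87), given as descriptions.

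Genes that act with or after these regulators were described through lists of the pathway. The shares of all genes called, to which list counts compare, ran over the 6 days from 31.3% to 39.2% higher and from 28.5% to 37.3% lower. After rescaling to equal totals, 26.7% to 39.1% of all calls were higher, and list counts after rescaling compare to that. Each named gene was taken for its largest rise or fall on any day, and its calls in the other direction follow. Of 20 E2F target genes of S phase, 20 fell on d4 and 20 on d15, with median log2 fold changes of -1.09 and -2.22, while the median of all genes tested lay between -0.00047 and 0.031 over the 6 days. At d7, 19 fell and 1 rose, on d20 12 fell and 3 rose, and on d1 5 fell and 3 rose. At d10 8 rose and 1 fell (median 0.11), counts that became 11 and 3 without the third d7 library and 5 and 8 after rescaling to equal totals, where the median was -0.12. *MCM10*, a replication factor, fell from 768 ± 41.1 at d0 to 71.8 ± 6.05 on d15 (log2 fold change -3.40, limma adjusted p = 2.31e-19). *TYMS*, which makes thymidylate, rose from 547 ± 14.7 at d0 to 1004 ± 22.5 on d20 (log2 fold change 0.88, limma adjusted p = 1.08e-10), and *UHRF1*, which maintains DNA methylation, rose from 1763 ± 82.8 at d0 to 3189 ± 122 on d10 (log2 fold change 0.86, limma adjusted p = 2.4e-05). *MCM10* rose on d10 (0.47), *TYMS* fell on d4 (-0.57) and d15 (-0.30), and *UHRF1* fell on d4 (-0.64), d7 (-0.56) and d15 (-2.22). Of 20 genes of G2 and mitosis, 15 fell and 1, *MYBL2*, rose on d1 (0.23, limma adjusted p = 0.00505), and the falls were 19 on d4, 20 on d7 and 20 on d15 (median -1.44). At d10 10 of them fell and 3 rose, or 14 and 5 without the third d7 library and 15 and 0 after rescaling, and on d20 2 fell and 3 rose, or 5 and 6, and 12 and 0. *MYBL2*, a transcription factor of the mitotic program, fell from 3073 ± 116 at d0 to 619 ± 42.7 on d15 (log2 fold change -2.31, limma adjusted p = 4.73e-18), and *BUB1B*, a spindle checkpoint kinase, fell from 3110.3 ± 127 at d0 to 782 ± 18.5 on d15 (log2 fold change -1.99, limma adjusted p = 6.1e-16). *AURKB* and *AURKA*, mitotic kinases, rose on d20, by 0.28 and 0.27 on the log2 scale (limma adjusted p = 0.00267 and 0.00616). Both fell on d4, d7 and d15, by 1.36 and 1.11 on d15, and *AURKA* also on d1, while *MYBL2* rose on d10 too (0.26).

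Of 18 G1 kinases, E cyclins and their regulators, 11 fell and 6 rose on d4, 12 fell and 3 rose on d7, and 11 fell and 3 rose on d15, against 37.3% lower and 39.2% higher of all genes on d15. *CDK6*, a partner of the D cyclins, rose from 1538 ± 85.6 at d0 to 3275 ± 59 on d10 (log2 fold change 1.09, limma adjusted p = 5.69e-10). *FBXW7*, which marks cyclin E and MYC proteins for degradation, rose from 657 ± 26.2 at d0 to 1384 ± 70.3 on d15 (log2 fold change 1.07, limma adjusted p = 4.25e-08). *CDC25A*, the phosphatase that activates CDK2, fell from 396 ± 14.3 at d0 to 96.1 ± 5.07 on d15 (log2 fold change -2.03, limma adjusted p = 1.9e-14), and *CCNE2*, which encodes cyclin E2, fell from 269 ± 6.62 at d0 to 67 ± 10.9 on d15 (log2 fold change -2.004, limma adjusted p = 1.67e-14). *FBXW7* fell on d10 (-0.28) and d20 (-0.32), *CDC25A* rose on d10 (0.30), and *CCNE2* rose on d1 (0.24) and d10 (0.38). Of 18 genes of the RB and E2F family, 11 fell and 3 rose on d15 (median -0.35). *E2F2*, an activating E2F, fell from 367 ± 12.8 at d0 to 27.2 ± 7.15 on d15 (log2 fold change -3.74, limma adjusted p = 2.96e-16), and *E2F1* fell from 479 ± 18.3 at d0 to 63.4 ± 11.6 on d15 (log2 fold change -2.92, limma adjusted p = 4.76e-15). *E2F1* rose on d1 (0.40) and d10 (0.60). *E2F7*, a repressing E2F, rose from 693 ± 18.9 at d0 to 1353 ± 29.2 on d10 (log2 fold change 0.96, limma adjusted p = 9.9e-13), and *LIN37*, a subunit of the DREAM repressor complex, rose from 160.0 ± 12.8 at d0 to 276 ± 12.2 on d15 (log2 fold change 0.78, limma adjusted p = 1.85e-07). On the other days of this list, 8 fell and 5 rose on d1, 9 and 2 on d4, 12 and 3 on d7, 8 and 5 on d10, and 9 and 4 on d20. Of the 18 G1 genes, 4 fell and 6 rose on d1, 4 and 7 on d10, and 7 and 4 on d20. After rescaling to equal totals these became 9 and 3, 10 and 3, and 12 and 3, so that the balance on d1 and d10 turned. The balance of all genes turned as well, with 26.7% of calls higher on d1 and 29.8% on d10.

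*CDKN1A* is itself a p53 target, and 20 other p53 target genes were listed. All 20 rose on d15 (median 1.32) and 18 rose on d7 (median 0.91), against 39.2% and 34.6% of all genes, and without the third d7 library 20 rose on d7. At d4 8 rose and 1 fell (11 and 5 without that library), on d20 10 rose (14 rose and 4 fell), on d1 5 rose and 5 fell, and on d10 5 rose and 8 fell. The median on d4 was 0.15 and turned to -0.04 after rescaling, where 7 rose and 4 fell. The 2 days with the most rises are those on which *CDKN1A* was highest. *TP53INP1*, a promoter of cell death and autophagy, rose from 214 ± 5.57 at d0 to 2104 ± 99.5 on d15 (log2 fold change 3.29, limma adjusted p = 1.27e-09). *TP53I3*, an oxidoreductase, rose on d4, from 447 ± 23.1 at d0 to 2035 ± 81.3 on d4 (log2 fold change 2.18, limma adjusted p = 7.26e-20). *BTG2*, an antiproliferative gene, fell from 679 ± 89.9 at d0 to 200.0 ± 17.6 on d10 (log2 fold change -1.75, limma adjusted p = 2.78e-06), and *FDXR*, which encodes ferredoxin reductase, fell from 554 ± 49.2 at d0 to 255 ± 23.8 on d10 (log2 fold change -1.12, limma adjusted p = 3.53e-06). *BTG2* rose on d7 (1.37) and d15 (1.79), *FDXR* rose on d15 (0.64), and *TP53INP1* fell on d10 (-0.75). *MDM2*, whose protein degrades p53, was 1451 ± 74.5 at d0 and 3294 ± 99.6 on d15 (log2 fold change 1.18, limma adjusted p = 0.000651), a gene chosen after its values were seen.

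**Figure D4:**
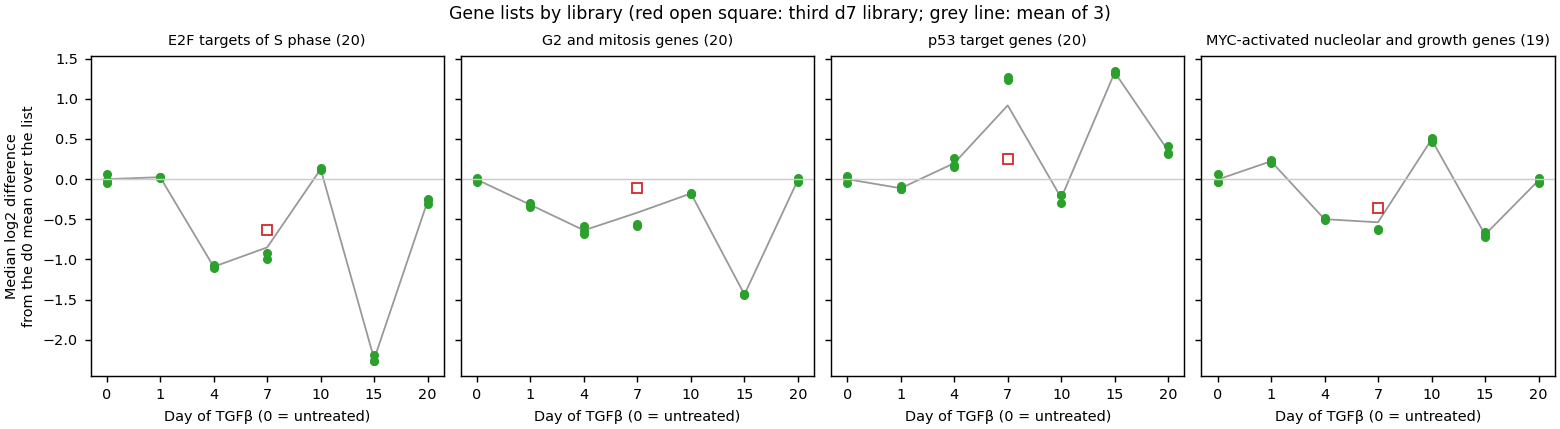
Median log2 difference from the untreated mean over each of 4 gene lists (number of genes in brackets) against day of TGFβ, a point per library, a red open square for the third d7 library and a grey line through the means of 3. S phase and mitosis genes are lowest and p53 targets highest on d15, while the MYC-activated genes lie above 0 on d1 and d10.

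The genes that MYC is known to activate moved against *MYC* on some days. Of 19 tested nucleolar and growth genes, 11 rose on d1 and 18 on d10 (median 0.47), but 15 fell on d4, 18 on d7 and 16 on d15 (median -0.68), and 5 fell on d20. *MYC* itself was called higher on d4, d10 and d15. After rescaling to equal totals, 3 of the 19 rose and 4 fell on d1, and 13 rose and 2 fell on d10, and without the third d7 library 14 rose and 1 fell on d1. *RRS1*, a ribosome assembly factor, rose from 459.7 ± 45 at d0 to 963 ± 41 on d10 (log2 fold change 1.07, limma adjusted p = 3.28e-09), and *NOP16*, a nucleolar protein, rose from 677 ± 53.3 at d0 to 1273 ± 39.7 on d10 (log2 fold change 0.91, limma adjusted p = 1.55e-09). *ODC1*, the first enzyme of polyamine synthesis, fell from 2835 ± 105 at d0 to 1014 ± 325 on d7 (log2 fold change -1.53, limma adjusted p = 4.27e-10), and *LDHA*, which encodes lactate dehydrogenase A, fell from 21831 ± 674 at d0 to 8587 ± 175 on d15 (log2 fold change -1.35, limma adjusted p = 3.22e-13). *RRS1* and *NOP16* fell on d4, d7 and d15, by 0.83 and 0.68 on d15. *ODC1* rose on d10 (0.47), and *LDHA* rose on d1 (0.45) and d10 (0.30). *EIF4A1*, the one other gene of that list, did not pass the filter on low values. Of 16 genes of the MYC and MAX network, 14 were tested. At d4 8 rose and 1 fell and on d20 9 rose and 3 fell, where 36.9% and 35.3% of all genes were called higher and lower on d4 and 32.5% and 30.2% on d20. After rescaling 5 rose and 5 fell on d4, and 2 rose and 4 fell on d20, and the balance of all genes turned as well, with 34.3% of calls higher on d4 and 28.2% on d20. The other days held 4 rises and 5 falls on d1, 5 and 1 on d7, 3 and 4 on d10, and 8 and 4 on d15. *MNT* and *MXD1*, which encode repressors that compete with MYC for MAX, rose on d4, *MNT* from 256 ± 19.2 at d0 to 599 ± 48.5 on d4 (log2 fold change 1.23, limma adjusted p = 2.93e-12) and *MXD1* from 264 ± 24.2 at d0 to 609 ± 20.3 on d4 (log2 fold change 1.21, limma adjusted p = 1.15e-09). *MXD3*, a further member of that group, fell from 426 ± 26.9 at d0 to 242 ± 34.2 on d1 (log2 fold change -0.82, limma adjusted p = 1.24e-07). *MXD3* also fell on d10 (-0.53) and d15 (-0.28), and rose on d7 (0.67, limma adjusted p = 1.73e-06) and d20 (0.36, limma adjusted p = 0.00191). *MYCL*, a paralog of *MYC* listed as *MYCL1*, fell from 255 ± 21.1 at d0 to 25 ± 5.13 on d20 (log2 fold change -3.32, limma adjusted p = 3.13e-08).

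Most direct SMAD targets rose on each treated day. Of 18 tested direct SMAD target and feedback genes, 17 rose on d1, 18 on d4, d7 and d15, 14 on d10 and 17 on d20, against 31.3% to 39.2% of all genes, and the median log2 fold change ran from 1.15 on d10 to 1.99 on d4. *PMEPA1*, a feedback inhibitor of SMADs, rose from 348 ± 24.5 at d0 to 15345 ± 83.5 on d4 (log2 fold change 5.46, limma adjusted p = 3.22e-23). *ATF3*, a stress-response factor, fell on d10, from 193 ± 28.3 at d0 to 124 ± 13.9 on d10 (log2 fold change -0.63, limma adjusted p = 0.00018), and rose on d4, d7, d15 and d20 (0.47 to 1.11). All 6 mesenchymal markers rose on all 6 days, led by *FN1*, from 4243 ± 182 at d0 to 539309 ± 7073 on d20 (log2 fold change 6.99, limma adjusted p = 1.08e-26), and *CDH2*, from 11 ± 2.49 at d0 to 782 ± 26.8 on d20 (log2 fold change 6.05, limma adjusted p = 1.62e-18). All 7 epithelial markers, among them *CDH1* and *TP63*, passed the filter on low values. Of these 7, 3 rose and 2 fell on d1, 3 and 4 on d4, 3 and 2 on d7, 1 and 4 on d10, 3 and 4 on d15, and 2 and 5 on d20. *EPCAM* fell from 2106 ± 52.4 at d0 to 297 ± 50.3 on d7 (log2 fold change -2.84, limma adjusted p = 2.17e-17), *CDH1* fell from 7195 ± 216 at d0 to 2868 ± 37.5 on d20 (log2 fold change -1.33, limma adjusted p = 1.7e-14), and *ITGB4* and *KRT14* rose, *ITGB4* from 12714 ± 150.1 at d0 to 83564 ± 2617 on d15 (log2 fold change 2.72, limma adjusted p = 3.46e-19). *KRT14* rose from 72774 ± 2088 at d0 to 162121 ± 43792 on d7 (log2 fold change 1.12, limma adjusted p = 3.06e-08), and its reads may be shared with near-identical keratin genes. The 8 markers of other cell types, such as leukocytes and endothelium, summed to between 12.7 and 58.5 per library, from 51.6 to 58.5 at d0 and 12.7 to 31.6 on the treated days, with 5 or 6 of the 8 at 3 reads or fewer in every library of a timepoint. Of the 8, 7 did not pass the filter on low values, *PTPRC*, *CD3E* and *HBB* among them. The other, *PECAM1*, was 41.3 ± 2.06 at d0 and was called lower on all 6 days. Its log2 fold changes ran from -1.43 on d10 (limma adjusted p = 0.00418) to -2.10 on d15 (limma adjusted p = 9.66e-05).

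For each of the 10 genes, the 3 genes with the most similar pattern were taken by Pearson r over the log2 values of the 21 libraries, among 3900 genes with a mean of at least 50 and a range of timepoint means of at least 1 on the log2 scale. The libraries share timepoints in threes, so r is a description. For *CDKN1A* these were *GRN* (0.98), *TTYH3* (0.98) and *ARAP1* (0.98), and for *CDKN1B* *PLEKHH3* (0.96), *PAN2* (0.96) and *R3HDM2* (0.95). For *CDKN1C* they were *ALDH3B1* (0.98), *TAP1* (0.98) and *SIAE* (0.98), and for *CDKN2B* *TAP1* (0.98), *C5orf4* (0.98) and *SLC26A11* (0.98), so that *TAP1*, a peptide transporter of antigen presentation, was common to both. *CDKN2A* was nearest to *PCDH9* (0.87), *NEFM* (0.85) and *SDSL* (0.84), and *CDKN2C* to *C10orf32* (0.89), *TOP2A* (0.87) and *LOC344595* (0.84), among them *TOP2A*, a topoisomerase of dividing cells. *CCND1* was followed most closely by *ITGA6* (0.99), *NLRP3* (0.98) and *ANO1* (0.98), of which *ITGA6* encodes integrin alpha 6. *CCND2* was nearest to *CCNI* (0.96), *LOC650623* (0.95) and *KLF12* (0.95). The genes nearest to *CCND3*, *CCDC86* (0.91), *NOL6* (0.90) and *BOP1* (0.89), include *NOL6* and *BOP1*, which act in ribosome production. *MYC* had the least similar neighbours, *BMP2* (0.74), *LPCAT1* (0.71) and *WNT9A* (0.70), at 0.73, 0.75 and 0.83 without the third d7 library.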

How the data were processed

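HMLE cells were sampled untreated and on 6 days of TGFβ, with 3 libraries each, which the study's data availability statement calls biological triplicates. The authors deposited normalized read counts per gene symbol, a signal in which reads were divided by one size factor per library and not by gene length. The submitters' processing notes name STAR 2.7, Salmon 1.4 and hg19. The annotation and strandedness are not given in the sources used here. Dividing by the step of each column gave back whole reads for 100% of values up to 200 reads, within a tolerance of 0.1, with totals of 18847917 to 22667754 per library.

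log2(value + 1) was fitted with limma 3.58.1 (variance trend, R 4.3.3) over all 21 libraries for the 13343 genes with a mean of at least 10. Each day was compared with d0 and with the day before it, with Benjamini-Hochberg adjustment over all genes tested within a comparison and a threshold of 0.05. Fold changes of low genes are understated on this scale. edgeR 4.0.16 and DESeq2 1.42.0 were run on the recovered reads as alternatives, besides other filters, pseudocounts, scalings and sets of libraries. Leaving out the third d7 library from every comparison was chosen after seeing the data. All 3 tools were tested on simulated data.

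The 10 genes and the gene lists were chosen with earlier results of these data known. Besides the 10 genes, the rule for named genes took from each list the 2 genes with the largest rise and the 2 with the largest fall on any day among those past the threshold with a mean of at least 50, and for each of the 10 the 3 genes with the highest Pearson r. Some genes that this rule took are not reported here. Promoter windows came from RefSeq (GRCh38.p14), and motif searches covered both strands. No coordinates were converted between builds. Tables and figures were made with Python 3.11.15, NumPy 2.4.6, pandas 2.3.3 and matplotlib 3.10.9.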

Additional observations from a re-analysis of the deposited data

Results flagged for a closer look

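For 3 CDK inhibitors, the change from untreated cells went in opposite directions at d10 and d15, and the direct comparison of these days passed the threshold. Both days share the d0 libraries, which cancel in the difference. *CDKN1C* was higher at d15 than at d10 by 5.05 on the log2 scale (limma adjusted p = 5.44e-12). *CDKN2B* was higher by 1.92 (limma adjusted p = 1.35e-09). *CDKN1B* was higher by 0.91 (limma adjusted p = 1.87e-12), its rise over d0 at d15 being lost after rescaling each library to the same total. In each of the 3 genes, every d15 library was above every d10 library. With 3 libraries in each group, no test for a single outlying value was run gene by gene.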

How the results depend on the processing

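No paired analysis was possible because replicate numbers are absent from the column names, and no fit with a replicate block could be made. Of 326 counts of called genes among the 10 under an alternative, 284 stayed within 1.5 times the reported count, as did 1534 of 1728 counts over the gene lists. Of 1570 fold changes of the 10 genes under an alternative, 1425 kept direction and side of the threshold, 67 newly passed it, 54 no longer passed it and 24 changed sign. The causes were not tested. TGFβ, time in culture and, on d7, 1 library out of 3 limit what the counts can show, and *CDKN1C* rests on 7 to 13 reads per library on d10.

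With a 2-fold change required, 1 gene was higher on d1, 3 on d4, 3 on d7, 1 on d10, 3 on d15 and 2 on d20, and 1 was lower on d10 and 0 on d20. With libraries rescaled to equal totals, 3 were higher and 3 lower on d4, 3 lower on d7, 2 lower on d15 and 3 higher on d20. Of all 13343 genes tested, 3440 were then higher and 6602 lower on d4. The same fit called 6552 lower on d7, 6296 lower on d15 and 2661 higher on d20. With quantile normalization 3 were higher and 3 lower on d4, 1 lower on d7 and 3 higher on d20. Over all genes it called 4232 higher and 5461 lower on d4, 5310 lower on d7 and 3570 higher on d20. With only 2 groups in the fit, 5 were higher on d1 and 2 lower on d4. The shares of all genes called in fits of 2 groups are not given here, so these counts are not read against a background. By edgeR 2 were lower on d4 and 3 higher on d20, where it called 5089 of all genes lower on d4 and 4089 higher on d20. Without the third d7 library, 5 were higher on d1, 2 lower on d4, 1 lower on d7 and 6 higher from d4 to d7, and by edgeR without it the same counts held, with 4 lower on d20 and 8 lower from d7 to d10. Of all genes, the limma fit without it called 34.4% higher on d1, 37.6% lower on d4 and 34.4% lower on d7. Shares of all genes called by edgeR without it, or between successive days without it, are not given here. Those counts are therefore not read against a background. Leaving out each replicate in turn, from 3 to 6 genes were higher and 1 to 2 lower on d4, 5 to 7 higher and 0 to 1 lower on d7, 6 to 8 higher on d15, 3 to 5 higher and 1 to 2 lower on d20, 4 to 5 higher from d1 to d4, 3 to 6 higher from d4 to d7, and 5 to 7 lower and 2 to 3 higher from d7 to d10. These ranges show how far the counts moved, and the shares of all genes in those fits are not given here.

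The log2 fold changes that changed sign were these. After rescaling, *CDKN1B* on d4 was -0.052, *CDKN2A* on d10 -0.093, *CCND3* on d15 -0.14 (limma adjusted p = 0.00964) and on d20 -0.079, and *CCND2* on d20 -0.035. After quantile normalization *CDKN2A* was -0.013 on d10 and -0.049 from d15 to d20. *CCND3* on d15 was -0.0072 by edgeR and -0.0064 by edgeR without the third d7 library. *MYC* from d4 to d7 was 0.0067 by edgeR, -0.44 to 0.34 when each d7 replicate was left out, 0.34 being without the third d7 library (limma adjusted p = 2.4e-06) and 0.36 by edgeR without it, and from d7 to d10 -0.11 to 0.68 when each d7 replicate was left out, with -0.11 and -0.13 without the third by limma and edgeR. Leaving out each replicate in turn gave *CDKN1B* -0.12 to 0.0038 on d7, *CCND3* -0.028 to 0.059 on d15, *CDKN2B* from d4 to d7 -0.081 to 0.501, *CCND2* from d7 to d10 -0.14 to 0.019, and *CDKN2A* from d15 to d20 -0.057 to 0.15.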
